A study of Mus musculus with 9 samples.

Results

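The genes described here are the 4 ligands and 6 receptor chains that govern the growth of myeloid cells, the white cells that include neutrophils, monocytes and macrophages. The ligands were Csf1, Il34, Csf2 and Csf3, and the receptor chains were Csf1r, Csf2ra, Csf2rb, Csf2rb2, Csf3r and Il3ra. These 10 genes were chosen by name for their role, with earlier results of these data known but by no measured threshold, and all 10 were among the 24341 genes of the deposited table. The study asked how an agonist antibody to CD40, a receptor that activates antigen-presenting cells, altered the mouse liver. RNA from liver of mice labelled C57BL/6 and WT (wild type) was sequenced from the 3′ end in 3 mice given the anti-CD40 antibody (clone FGK45, mice 2, 5 and 9) and 6 control mice given PBS (mice 3, 4, 7, 8, 11 and 12), 48 hours after treatment. The study's methods name C57BL/6J mice and, for some experiments that are not listed, a colony with Cre driven by the Pdx promoter. Mice in the study were generally 8 to 12 weeks old, and its methods state that anti-CD40 mice without a fall in circulating B cells were excluded. No tumor, gene deletion or other agent was labelled in either group.

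CSF1 (macrophage colony-stimulating factor) and IL-34 both bind CSF1R, a receptor tyrosine kinase on which monocytes and tissue macrophages, including the Kupffer cells of the liver, depend. CSF2 (GM-CSF) binds the alpha chain encoded by Csf2ra and signals through the common beta chain encoded by Csf2rb, which also serves IL-3 and IL-5, whereas the mouse has a further beta chain, encoded by Csf2rb2, that works with the IL-3 receptor alpha chain encoded by Il3ra. CSF3 (G-CSF) acts through CSF3R on neutrophils and their precursors, and both CSF3R and the beta chains signal through JAK kinases and STAT factors.

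Of the 10 genes, 8 had a mean of at least 0.1 FPKM (reads scaled to transcript length and library size) over the 9 mice and were tested, and Csf2 and Csf3 were not. With limma on log2(FPKM + 0.1), adjusted over all 13807 genes tested, 6 of the 8 were higher after anti-CD40 at an adjusted p under 0.05 and 0 were lower. Across all genes tested, 23.5% were higher and 21.7% were lower. The 6 higher genes were Csf1, Il34, Csf2ra, Csf2rb, Csf2rb2 and Csf3r, and the remaining 2 were Csf1r and Il3ra. Csf2rb2, with a control mean of 0.0971 FPKM, passed the filter of 0.1 through its anti-CD40 values alone. Its anti-CD40 mean thus had to lie above its control mean, but the filter did not require the 0.556 FPKM observed. Without Csf2rb2, 5 of 7 were higher. The median log2 fold change of the 8 genes was 1.72, beside 0.01 for all genes tested, and 1.71 without Csf2rb2. In 5 of the 8 (Csf1, Csf2ra, Csf2rb, Csf2rb2 and Csf3r) all 3 anti-CD40 mice lay above all 6 control mice, and in 0 they lay below. Csf2rb2 is counted among the 5, under the same limit of the filter. Each of the 5 had an exact permutation p of 0.0238, the smallest that the 84 splits of the mice allow, and 22.7% of all genes were separated upward and 19.6% downward, 42.4% in all. The log2(FPKM + 0.1) scale understates the change of genes with low values.

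**Figure D1:**
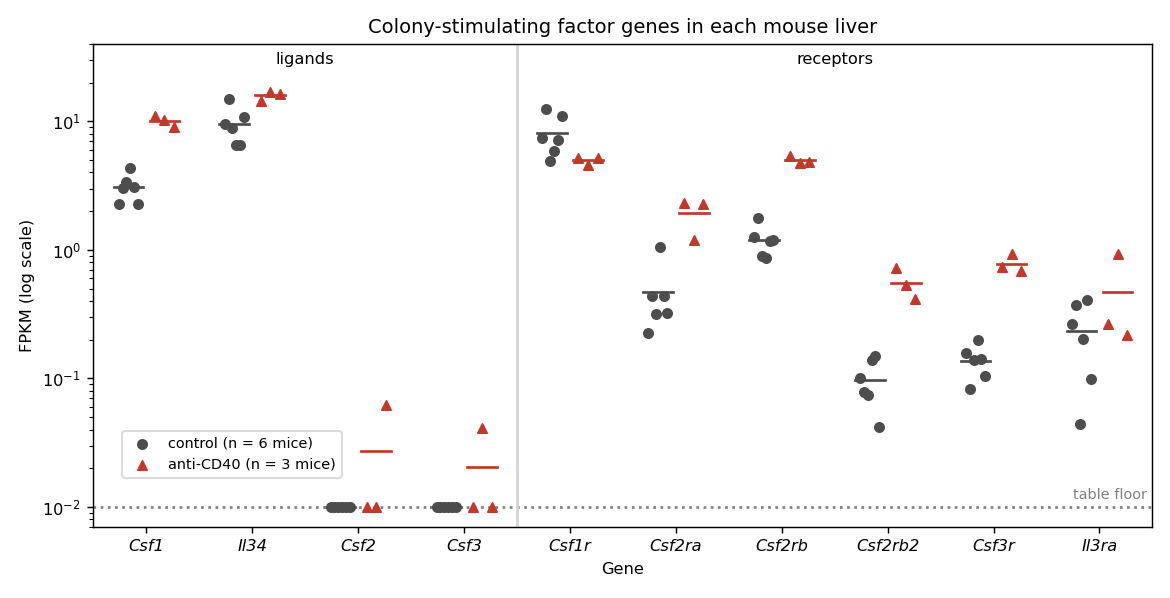
Level of each of the 10 genes in each mouse (FPKM, log axis), with anti-CD40 and control mice drawn apart and a bar at each group's mean. The 3 anti-CD40 mice sit above all 6 control mice for Csf1, Csf2ra, Csf2rb, Csf2rb2 and Csf3r, the groups overlap for Il34, Csf1r and Il3ra, and Csf2 and Csf3 lie at the floor of 0.01 in all but 1 mouse each.

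The 9 libraries held 14684 to 15545 genes above the floor of 0.01 FPKM. FPKM values of most genes were whole multiples of the worth of 1 read, so read numbers could be recovered (within 0.05 of a whole read) for 64.8% of the genes tested and for 9 of the 10 genes here, all but Csf1. Csf2 and Csf3 count among the 9 by construction, because a gene above the floor in 1 mouse alone always gives 1 read. The acute-phase genes Saa1, Saa2 and Saa3 made up 25.4% to 25.9% of summed FPKM after anti-CD40 and 0.0449% to 0.38% in control mice. When these were left out and the mice rescaled, the median change over all genes shifted to 0.35 on the log2 scale and 77.4% of the calls were higher, compared with 52.0% before. The same 6 genes stayed higher, each with a log2 change above that median. Summed FPKM of 8 hepatocyte genes ranged from 3360 to 4220 after anti-CD40 and from 10300 to 18900 in controls, with albumin (Alb) present in every mouse. Of these 8 genes 5 were lower, Apob was higher (log2 fold change 0.74, limma adjusted p = 0.0132) and Hnf4a and Tat did not pass. Lymphocyte markers rose, with 6 of 6 B cell genes and 6 of 7 T and NK cell genes higher, although 1 gene of each list (Cd79a and Cd8a) passed the filter through anti-CD40 mice alone. Of 6 genes of conventional dendritic cells, 4 were tested and 3 were higher, whereas Cd209a and Itgae, both under the filter, had lower means after anti-CD40 (0.01 and 0.0440 FPKM) than in controls (0.132 and 0.127). Endothelial genes were split at 3 higher and 3 lower of 8, stellate cell genes at 3 and 2 of 8, and 0 passed of the single eosinophil gene and the 7 pancreatic genes tested. In bulk tissue, fewer cells of a type and less RNA per cell cannot be told apart.

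Promoter sequences from RefSeq were searched for motifs of factors known in myeloid or inflammatory gene control. The search covered 6 of the 10 genes (Csf1, Csf2, Csf2ra, Csf2rb2, Csf3r and Il3ra), and promoters of the others were not searched. Sequences of the 4 of these 6 that rose are shown so that their matches can be set side by side. Each is printed in the direction of transcription on GRCm38.p6, the assembly of mm10, from 250 bases before the start site to 50 bases after it, with motif matches in capitals. Csf1 (chr3:107760420-107760719, minus strand), Csf2ra (chr19:61228369-61228668, minus strand), Csf2rb2 (chr15:78305672-78305971, minus strand) and Csf3r (chr4:126024409-126024708, plus strand) read as follows.
Csf1: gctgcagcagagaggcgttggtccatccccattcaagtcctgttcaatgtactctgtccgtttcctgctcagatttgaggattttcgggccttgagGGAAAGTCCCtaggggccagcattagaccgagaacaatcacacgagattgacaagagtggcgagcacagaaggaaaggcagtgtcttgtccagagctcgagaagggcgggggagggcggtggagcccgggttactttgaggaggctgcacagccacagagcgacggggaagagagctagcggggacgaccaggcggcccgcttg
Csf2ra: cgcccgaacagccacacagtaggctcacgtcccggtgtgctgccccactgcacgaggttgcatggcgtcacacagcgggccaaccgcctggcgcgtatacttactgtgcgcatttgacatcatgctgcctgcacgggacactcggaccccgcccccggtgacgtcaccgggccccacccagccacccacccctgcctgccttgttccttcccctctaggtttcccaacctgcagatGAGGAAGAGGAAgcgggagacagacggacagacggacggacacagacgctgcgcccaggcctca
Csf2rb2: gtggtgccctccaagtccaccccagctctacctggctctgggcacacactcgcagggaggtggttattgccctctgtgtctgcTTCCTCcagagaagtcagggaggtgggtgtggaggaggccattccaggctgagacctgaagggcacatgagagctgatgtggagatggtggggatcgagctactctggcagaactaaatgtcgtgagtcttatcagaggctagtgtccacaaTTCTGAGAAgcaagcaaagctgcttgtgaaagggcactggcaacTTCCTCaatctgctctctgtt
Csf3r: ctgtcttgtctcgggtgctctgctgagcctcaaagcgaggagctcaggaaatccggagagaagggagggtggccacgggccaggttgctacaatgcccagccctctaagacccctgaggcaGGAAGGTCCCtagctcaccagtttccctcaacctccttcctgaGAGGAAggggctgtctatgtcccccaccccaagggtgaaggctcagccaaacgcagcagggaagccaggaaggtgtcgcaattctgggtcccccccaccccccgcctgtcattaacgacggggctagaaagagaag
The motifs, searched on both strands, were GGG and TTCC with 3 bases of any kind between them for NF-kB (in 5.56% of 32851 RefSeq promoters of this length), GAGGAA for PU.1 (28.3%), TTCNNNGAA for STAT factors (8.3%), TTGCNNAA for C/EBP factors (10.8%) and the TATA box TATAAA (13.6%). Csf1 had an NF-kB match that began at -154 from the start site, and Csf3r had one at -129. PU.1 matches began at -14 and -8 in Csf2ra, at -167 and 30 in Csf2rb2 and at -86 in Csf3r. The STAT match lay at -15 in Csf2rb2. No printed matches overlapped, and the C/EBP and TATA letters were in none of these 4 windows. The Csf2 and Il3ra windows, not printed, each had a C/EBP match, at -145 and -134. These matches describe the letters only, and binding was not measured.

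Both CSF1R ligands rose. Csf1 (chr3:107741048-107760469, minus strand) was at 10.9, 10.2 and 9.10 FPKM in anti-CD40 mice 2, 5 and 9. Control mice ranged from 2.26 to 4.37 FPKM with a median of 3.06. The lowest anti-CD40 mouse thus stood above the highest control, mouse 4. The group means were 10.1 ± 0.916 FPKM (SD, n = 3) and 3.07 ± 0.781 (SD, n = 6), and the log2 fold change was 1.71 (SE 0.20, limma adjusted p = 7.16e-05).

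Il34 (chr8:110741829-110805924, minus strand) was at 14.5, 16.8 and 16.4 FPKM in anti-CD40 mice 2, 5 and 9. Control mice ranged from 6.56 to 14.8 FPKM, with a median of 9.22. The groups overlapped, because control mouse 12 stood above anti-CD40 mouse 2. Means were 15.9 ± 1.27 FPKM (SD, n = 3) and 9.53 ± 3.09 (SD, n = 6). This log2 fold change of 0.79 (SE 0.24, limma adjusted p = 0.0208) rested on 489 to 539 reads per anti-CD40 mouse and 208 to 411 per control mouse. The call was lost without mouse 5 (adjusted p = 0.0711), without mouse 9 (0.0671) and with no filter on low values (0.0642). The locus overlaps Gm15894 and Gm15895 on the opposite strand in GENCODE M21, and whether reads were counted by strand was not given in the sources used here.

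The rise of Csf1 and that of Il34 were compared in a log2 ratio of both genes within each mouse. This ratio of Csf1 to Il34 was -0.65 ± 0.23 (SD, n = 3) after anti-CD40 and -1.58 ± 0.69 (SD, n = 6) in controls, a difference of 0.93. The groups overlapped, and the difference did not pass the test (exact permutation p = 0.0714, adjusted p = 0.143 over the 6 pairs of genes compared). Genes whose profile over the 9 mice lay nearest to that of Csf1 were Cldn4, a tight-junction protein, Litaf and Zfp52, with root mean square differences in log2 change of 0.137, 0.166 and 0.17. Cldn4, at a control mean of 0.0305 FPKM, passed the filter through anti-CD40 mice alone. Its ratio of means was 10.1, beside 3.28 for Csf1, so the nearness holds on log2(FPKM + 0.1) and not for the ratio of FPKM means. The nearest to Il34 were Cpb2, a plasma carboxypeptidase made in the liver, N4bp1 and Gpr107, at 0.092, 0.133 and 0.138.

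Csf2 and Csf3 were near the limit of detection. Csf2 (chr11:54247270-54249899) was above the floor only in anti-CD40 mouse 9, at 0.0623 FPKM, and at the floor in the other 8 mice. Gm12223 overlaps Csf2 on the opposite strand. Csf3 (chr11:98701313-98703629) likewise was above the floor only in anti-CD40 mouse 5, at 0.0414 FPKM. A lone value does not give its read number, and each was taken as 1 read, the smallest possible. On that assumption, with 0 reads in the 6 control mice together, 3 reads over the group would be a mean of 0.0317 FPKM for Csf2. For Csf3 it would be 0.0226 FPKM, and these limits cover counting error only. A value in 1 mouse is no difference between groups (exact permutation p = 0.667 for each), so neither gene could be shown to change at this depth.

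Among the receptors, Csf1r (chr18:61105572-61131139) did not rise with its ligands. It was at 5.2, 4.61 and 5.16 FPKM in anti-CD40 mice 2, 5 and 9 (353 to 423 reads). In control mice it ranged from 4.93 to 12.4 FPKM with a median of 7.26 (346 to 821 reads). Only control mouse 3 fell within the anti-CD40 range. Means were 4.99 ± 0.329 FPKM (SD, n = 3) and 8.12 ± 2.94 (SD, n = 6), and the log2 difference of -0.62 (95% interval -1.21 to -0.03) did not pass after adjustment (limma adjusted p = 0.0837, exact permutation p = 0.0714).

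The Csf1r call depended on the processing. It was lower at an adjusted p of 0.0322 without control mouse 3 and of 0.0455 after quantile normalization. With Saa1, Saa2 and Saa3 left out the difference was -0.26 (adjusted p = 0.391), where the median of all genes was 0.35. The locus holds Mir6983 and overlaps Hmgxb3 on the opposite strand.

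Markers of the cells known to express Csf1r moved in opposite directions. All 10 Kupffer cell genes measured fell (9 of 9 without Cd163, which passed the filter through controls alone), and their summed FPKM was 59.5 to 70.7 after anti-CD40 and 343 to 513 in controls. The first of them, Clec4f, a Kupffer cell lectin, had a log2 change of -6.77 (SE 0.28, limma adjusted p = 1.5e-07). Of 12 genes of monocytes and monocyte-derived macrophages, 11 rose and 0 fell (9 of 10 without Chil3 and Vcan, which passed the filter through anti-CD40 mice alone), with sums of 386 to 522 and 35.5 to 72.4. Ly6c2, which marks inflammatory monocytes, rose by 5.61 (SE 0.37, adjusted p = 2.22e-06). In controls, Csf1r was lowest in mouse 3 and highest in mouse 12, which also had the lowest and highest Kupffer cell sums. This was not particular to Kupffer cells, because mice 3 and 12 also had the lowest and highest control sums of endothelial genes (105 and 128). Mouse 12 was likewise the highest control for the hepatocyte (18900) and plasmacytoid dendritic cell (123) sums. The part of any of these cell types in the Csf1r values was not tested. The profiles nearest to Csf1r were Wbscr27, Kng1 and C8b, at 0.16, 0.201 and 0.203, of which Kng1 and C8b encode plasma proteins made in the liver.

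**Figure D2:**
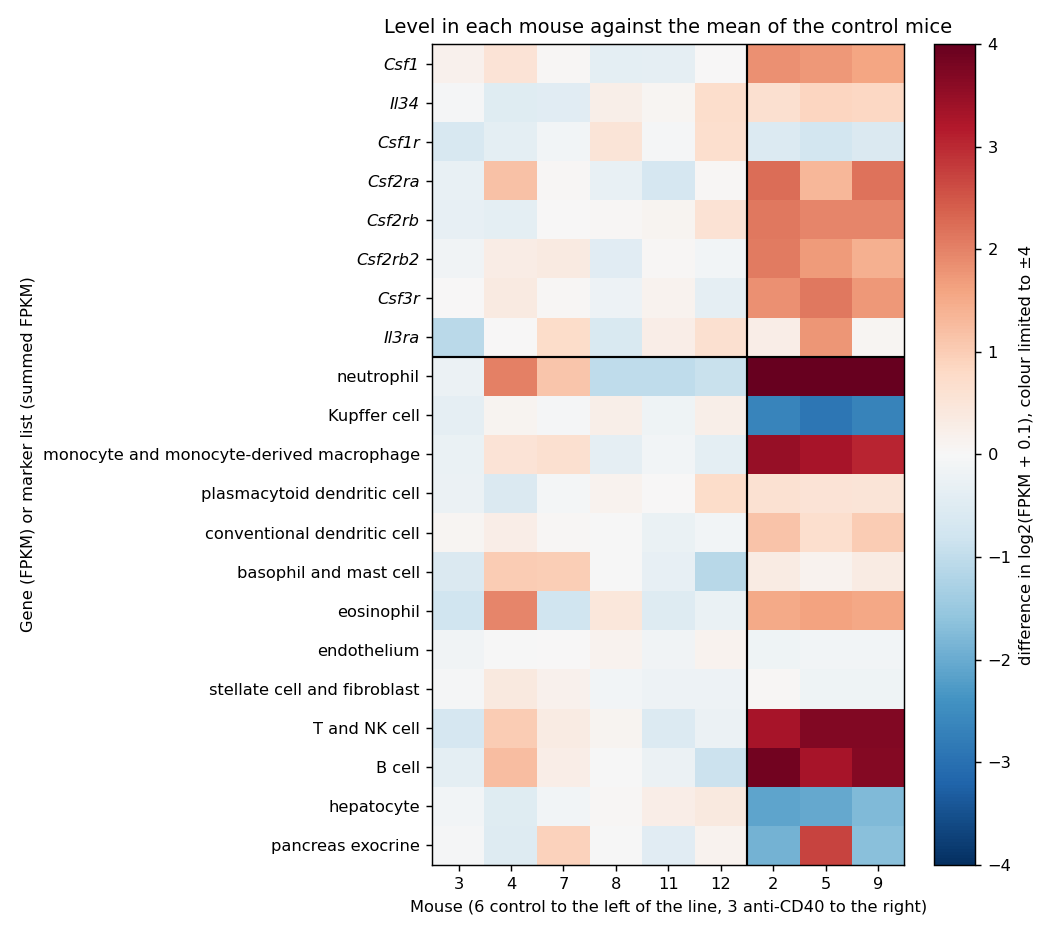
Heat map of the difference in log2(FPKM + 0.1) from the control mean, by mouse (columns, 6 control to the left and 3 anti-CD40 to the right), for the 8 genes tested (above the line) and for the summed FPKM of each marker list (below it), with colour limited to ±4. In the 3 anti-CD40 mice the Kupffer cell sums (59.5 to 70.7 FPKM) lie below those of all controls, the neutrophil and monocyte sums lie above them, and Csf1r lies near its level in control mouse 3.

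Both chains of the GM-CSF receptor rose. Csf2rb, the common beta chain (chr15:78325990-78351001, plus strand), was at 5.40, 4.73 and 4.80 FPKM in anti-CD40 mice 2, 5 and 9. Control mice lay between 0.870 and 1.76 FPKM, with a median of 1.18. The groups did not overlap, on 425 to 546 reads per anti-CD40 mouse and 78 to 145 per control mouse. Means of 4.97 ± 0.368 (SD, n = 3) and 1.19 ± 0.323 (SD, n = 6) gave a log2 fold change of 2.01 (SE 0.20, limma adjusted p = 2.74e-05). The table places a Mir7676 gene at this locus, and another at that of Csf2rb2.

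Csf2ra, the chain that binds GM-CSF (chr19:61224402-61228418, minus strand), was at 2.33, 1.2 and 2.26 FPKM after anti-CD40. Control values ran from 0.225 to 1.06 FPKM with a median of 0.380. The groups were separated by a narrow gap, between anti-CD40 mouse 5 with 41 reads and control mouse 4 with 36, whereas the other 5 control mice had 7 to 15 reads. The log2 fold change was 1.91 (SE 0.37, limma adjusted p = 0.00193), with means of 1.93 ± 0.635 (SD, n = 3) and 0.467 ± 0.302 (SD, n = 6). Control mouse 4 also had the highest control sum of the neutrophil markers, 157 beside 19.2 to 84.2 in the other controls. The same mouse was highest among controls for the B cell (7.37), T and NK cell (13.7) and conventional dendritic cell (3.25) sums. That also held for the eosinophil, the basophil and mast cell, and the stellate cell sums, but not for monocytes (67.8, beside 72.4 in control mouse 7). Single genes made up most of some of these sums in mouse 4. They were S100a8 (99.2 FPKM) for neutrophils, Gzma (10.1) for T and NK cells and Dcn (294) for stellate cells. The part of any of these cells in its Csf2ra level was not tested.

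Csf2rb2, the beta chain for IL-3 alone (chr15:78282508-78305721, minus strand), was at 0.718, 0.535 and 0.416 FPKM after anti-CD40. Control mice lay at 0.0418 to 0.149 FPKM, with a median of 0.0898. The groups did not overlap, although the control values rested on 3 to 13 reads per mouse. Means were 0.556 ± 0.152 (SD, n = 3) and 0.0971 ± 0.0406 (SD, n = 6), and the log2 fold change was 1.74 (SE 0.25, limma adjusted p = 0.000254). Csf2rb and Csf2rb2 are close paralogs on chromosome 15. Of the 50-base windows in the longest coding GENCODE M21 transcript, 18.4% in Csf2rb and 19% in Csf2rb2 occurred in the other, but 0 of 451 windows in the last 500 bases did, where 3′ end libraries take most reads. Only exact matches were counted, whereas the study's alignment allowed mismatches, so whether reads of these paralogs were kept apart was not tested.

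Within each mouse, the log2 ratio of Csf2rb to Csf2ra was 1.38 ± 0.46 (SD, n = 3) after anti-CD40 and 1.28 ± 0.82 (SD, n = 6) in controls. Its difference of 0.09 was well inside the spread (exact permutation p = 1). The ratio of Csf2rb to Csf2rb2 was 2.97 ± 0.25 and 2.70 ± 0.51, a difference of 0.27 that also did not pass (exact permutation p = 0.429, adjusted p = 0.514 over 6 pairs). A difference between these chains was thus not detected in either pair, and the control spread leaves room for one. With a pseudocount of 1 the latter difference was 0.96 (adjusted p = 0.0476) and with 0.01 it was -0.37, so its size and sign depended on the scale.

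Csf3r, the G-CSF receptor (chr4:126024659-126044975, plus strand), was at 0.734, 0.922 and 0.686 FPKM in anti-CD40 mice 2, 5 and 9 (45 to 65 reads). In control mice it was at 0.0820 to 0.201 FPKM with a median of 0.141 (5 to 14 reads). Every anti-CD40 mouse stood above every control by a wide margin. Means were 0.781 ± 0.125 (SD, n = 3) and 0.138 ± 0.0414 (SD, n = 6), with a ratio of 5.67 between means. The log2 fold change was 1.90 (SE 0.21, limma adjusted p = 4.79e-05). The log2 value corresponds to less than the ratio of means because 0.1 FPKM is added to both groups.

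All 11 neutrophil marker genes measured rose, but 6 of them (Cxcr2, Ngp, Ltf, Mmp8, Stfa2l1 and Trem1) lay under 0.1 FPKM in controls and were tested through their anti-CD40 values alone, which leaves 5 of 5. The summed FPKM of the 11 was 4240 to 5230 after anti-CD40 and 19.2 to 157 in controls. S100a8 and S100a9 made up most of the sum, with means of 3316 and 1437 FPKM after anti-CD40 and 36.8 and 16.0 in controls. Retnlg, a secreted protein of neutrophils, rose by 6.38 (SE 0.85, limma adjusted p = 0.000172), and Ly6g was not analysed here. The part of neutrophil number in the rise of Csf3r was not tested. The profiles nearest to Csf3r were Slc7a1, Ltf and Rftn1, at 0.154, 0.154 and 0.167, and Ltf, which encodes the granule protein lactoferrin, is itself among the neutrophil markers. The ratio of FPKM means was 16.4 for Ltf and 5.67 for Csf3r, so these lay near each other on log2(FPKM + 0.1) only. Nearest to Csf2rb were Lgals3bp, Enc1 and Hcls1, at 0.144, 0.154 and 0.155. Csf2ra lay nearest to Icosl (0.194) and Csf2rb2 to Ifit1bl1 (0.163).

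Csf2rb and Csf3r were also set against Csf1r within each mouse. The log2 ratio of Csf2rb to Csf1r was -0.0046 ± 0.086 (SD, n = 3) after anti-CD40 and -2.63 ± 0.27 (SD, n = 6) in controls. That of Csf3r to Csf1r was -2.54 ± 0.29 and -5.06 ± 0.73. In both ratios all 3 anti-CD40 mice lay above all 6 controls, with differences of 2.63 and 2.52. Each reached the smallest p the design allows (exact permutation p = 0.0238), which gave an adjusted p of 0.0714 over the 6 pairs, above 0.05. Because 3′ end reads are divided by transcript length, the ratio itself does not compare levels of different genes, and only its change between groups can be read.

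**Figure D3:**
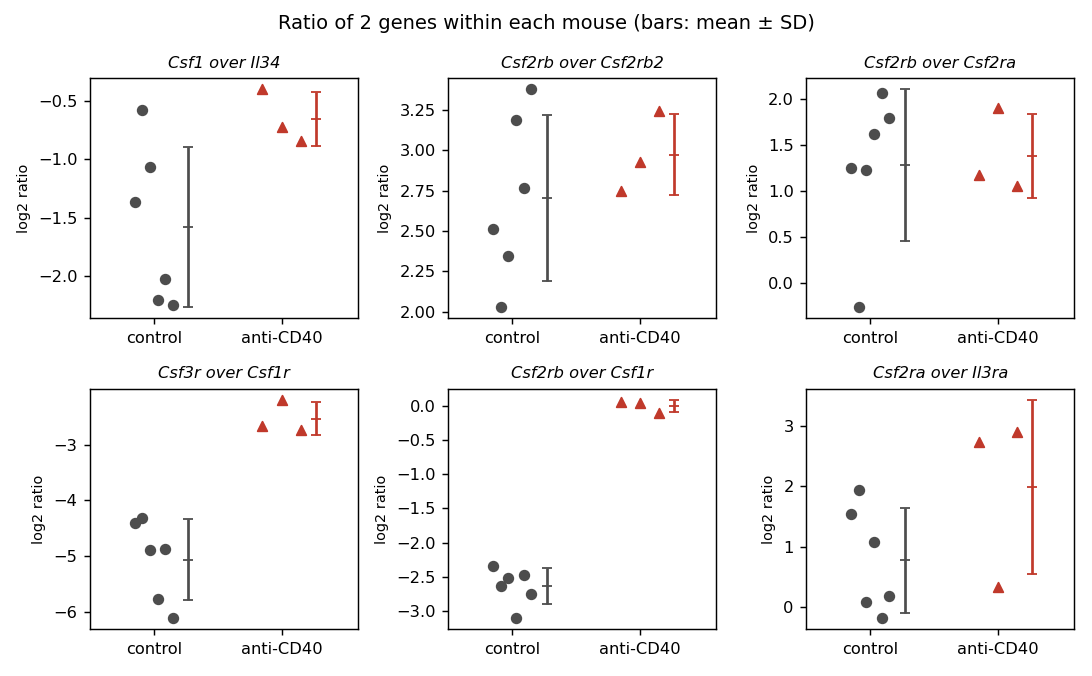
Log2 ratio of the genes of each of the 6 pairs within each mouse, from FPKM + 0.1, by group, with bars at the mean ± SD and a separate vertical axis for each pair. The groups are apart for Csf3r over Csf1r and Csf2rb over Csf1r and overlap for the other 4 pairs.

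Il3ra, the IL-3 binding chain (chr14:14346495-14355490, plus strand), was at 0.266, 0.928 and 0.217 FPKM in anti-CD40 mice 2, 5 and 9, on 7, 23 and 5 reads. Control mice ranged from 0.0441 to 0.406 FPKM with a median of 0.235, on 1 to 10 reads. Mouse 5 alone stood above the controls, and the other 2 anti-CD40 mice lay among them. The log2 difference was 0.70 (95% interval -0.37 to 1.77, limma adjusted p = 0.263, exact permutation p = 0.286), and 0.17 without mouse 5 (adjusted p = 0.805). Gm48860 overlaps the locus on the opposite strand. The interval includes both no change and the change of Csf2rb2 (1.74), but not that of Csf2rb (2.01). Mouse 5 also had the highest sum of pancreatic enzyme genes, 657 beside 27.4 to 190 in the other 8 mice. Cela1 made up most of the control sums, at a control mean of 106 FPKM. Prss2 ranged from 0.01 to 0.284 FPKM in controls and from 0.01 to 102 in anti-CD40 mice. The part of pancreatic tissue in the Il3ra level of mouse 5 was not tested.

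The log2 ratio of Csf2ra to Il3ra was 1.99 ± 1.43 (SD, n = 3) after anti-CD40 and 0.78 ± 0.86 (SD, n = 6) in controls, and its difference of 1.21 did not pass (exact permutation p = 0.143, adjusted p = 0.214 over 6 pairs). Without mouse 5 the difference was 2.04. The genes nearest to Il3ra, Manf, Pld3 and Sdf2l1, were farther off than for any other member, at 0.436, 0.439 and 0.462. Markers of plasmacytoid dendritic cells, known to express Il3ra, summed to 106 to 113 FPKM after anti-CD40 and 50.3 to 123 in controls, with 3 of 6 genes higher. Bst2 made up most of the sum, with means of 91.9 and 68.1 FPKM, beside 0.747 and 0.443 for Siglech and 0.326 and 0.238 for Ccr9. The sum therefore says little about these cells. The 3 higher genes were Siglech, Tcf4 and Klk1, and Klk1 ranged from 1.38 to 11.8 FPKM among the anti-CD40 mice. Of 4 basophil and mast cell genes tested 1 was higher (Mcpt8, tested through anti-CD40 mice alone), with sums of 1.2 to 1.38 and 0.439 to 2.28.

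**Figure D4:**
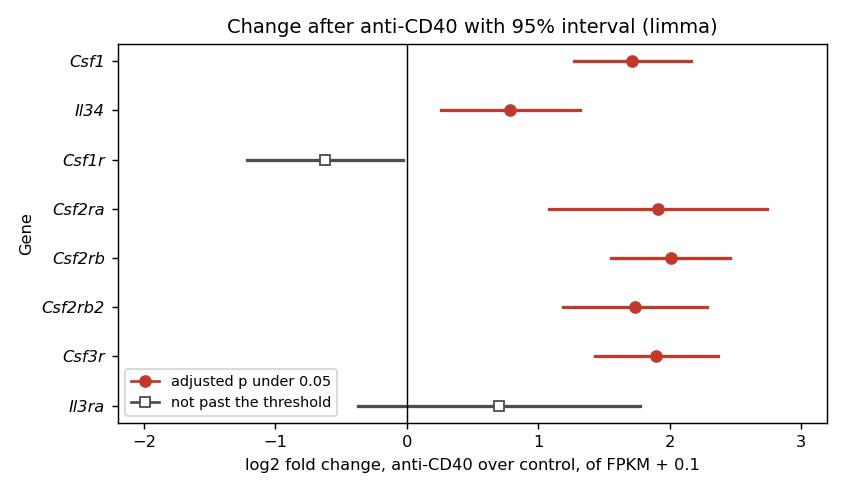
Log2 fold change of FPKM + 0.1, anti-CD40 over control, with its 95% interval for the 8 genes tested. Csf2rb, Csf2ra, Csf3r, Csf2rb2 and Csf1 lie between 1.71 and 2.01, Il34 lies at 0.79, and the intervals of Il3ra and Csf1r reach from -0.37 to 1.77 and from -1.21 to -0.03.

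Most listed genes of the signal downstream of CSF1R rose. Of 17 genes, 13 rose and 0 fell, with a median log2 fold change of 1.64 beside 0.01 for all genes tested. Shares over all genes tested, beside which this list and those below stand, were 23.5% higher and 21.7% lower. Fgr, a Src-family kinase, rose by 2.96 (SE 0.20, limma adjusted p = 2.72e-06). Rac2, a small GTPase of blood cells, rose by 2.62 (SE 0.16, adjusted p = 1.2e-06), and Syk, a kinase coupled to immune receptors, by 2.40 (SE 0.18, adjusted p = 3.89e-06). Many of these genes also serve other receptors of white cells.

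Of 20 genes of the JAK-STAT signal used by the beta chains and CSF3R, 10 rose, 1 fell and 9 did not pass, with a median of 0.49. The feedback inhibitors Socs1 and Socs3 rose by 2.69 (SE 0.36, limma adjusted p = 0.000169) and 2.50 (SE 0.35, adjusted p = 0.00022). Osm, a cytokine that myeloid cells make in response to GM-CSF, rose by 2.26 (SE 0.25, adjusted p = 5.48e-05), but with a control mean of 0.0385 FPKM it was tested through its anti-CD40 values alone. Without it 9 of 19 rose. The gene that fell, Stat5b, chosen after its values were seen, had a log2 change of -0.57 (SE 0.14, adjusted p = 0.00775).

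Of 14 transcription factors of myeloid cells, 6 rose, 2 fell and 6 did not pass, and the median was 0.75. Egr2 rose by 2.80 (SE 0.23, limma adjusted p = 7.3e-06), Irf8, which directs monocyte and dendritic cell fate, by 2.23 (SE 0.17, adjusted p = 5.45e-06), and Gfi1, a repressor needed for neutrophil formation, by 1.98 (SE 0.33, adjusted p = 0.000713). Egr2 and Gfi1 had control means of 0.0434 and 0.0947 FPKM and passed the filter through anti-CD40 mice alone. Without them 4 of 12 rose and 2 fell, with a median of 0.43, not far from the 23.5% higher and 21.7% lower of all genes tested. The 2 that fell, named after their values were seen, were Cebpa, which is also a hepatocyte factor, at -1.49 (SE 0.23, adjusted p = 0.000489) and Cebpe, a factor of granulocyte maturation, at -0.995 (SE 0.27, adjusted p = 0.0116).

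Of 7 known inducers of colony-stimulating factors, 5 were tested, 3 rose and 0 fell, with a median of 1.89. Tnf rose by 3.90 (SE 0.32, limma adjusted p = 7.21e-06) and the alarmin Il33 by 2.01 (SE 0.22, adjusted p = 4.28e-05). The other, Il1b, named after its values were seen, rose by 1.89 (SE 0.66, adjusted p = 0.0387), but its groups overlapped, since controls reached 14.6 FPKM and the lowest anti-CD40 mouse was at 13.3. Il17a was at the floor in all 9 mice.

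Among 13 other growth factors and receptors of blood and macrophage lineages, 7 were tested, 2 rose and 1 fell, and the median was 0.40. Flt3, a receptor of dendritic cell precursors, rose by 1.15 (SE 0.31, limma adjusted p = 0.0127) and Kit, the stem cell factor receptor, by 0.55 (SE 0.19, adjusted p = 0.0363). Flt3, at a control mean of 0.0481 FPKM, passed the filter through anti-CD40 mice alone. Without it 1 of 6 rose with a median of 0.17, not far from the 23.5% of all genes tested that were higher. The erythropoietin receptor Epor fell, with a log2 change of -0.98 (SE 0.23, adjusted p = 0.00616). Il3 and Il5, whose receptors share the common beta chain, and Epo were at the floor in all 9 mice.

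**Figure D5:**
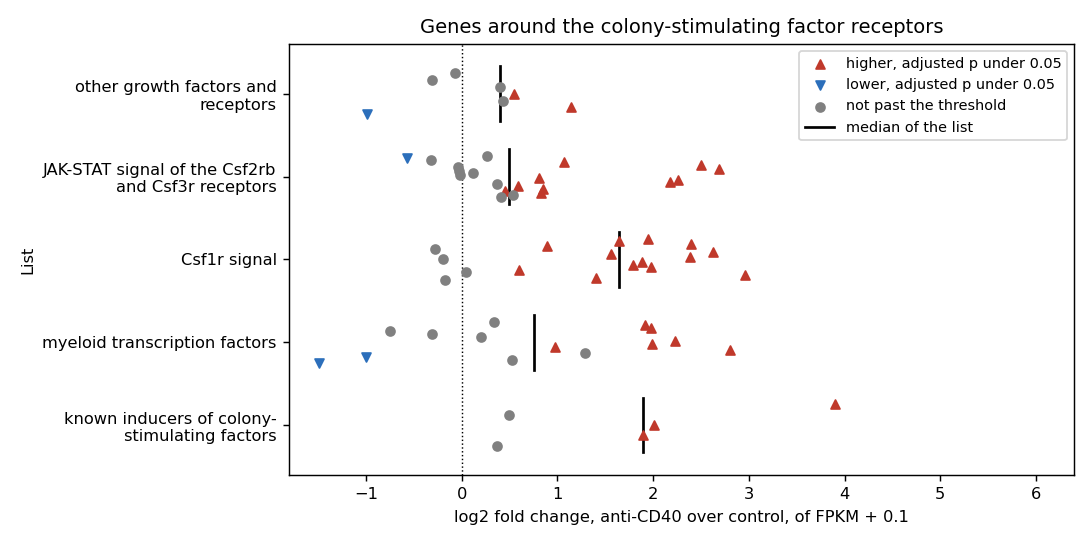
Log2 fold change of FPKM + 0.1, anti-CD40 over control, for each gene tested in 5 lists around the receptors, with upward triangles for higher, downward triangles for lower and circles for genes that did not pass, and a line at each list's median. Medians are 1.64 for the CSF1R signal and 1.89 for the inducers, and 0.40, 0.49 and 0.75 for the other growth factors, the JAK-STAT signal and the transcription factors.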

How the data were processed

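Per the labels and the study's methods, liver RNA was made into QuantSeq 3′ mRNA-Seq FWD libraries and sequenced on a NextSeq 500. The authors aligned reads to mm10 with STAR and deposited 1 FPKM value per gene and mouse from Cufflinks and CuffDiff. The annotation, the filter applied to the table and the use of strand were not given in the sources used here. Read depth was therefore known only where whole reads were recovered from FPKM steps.

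Of 24341 genes, 15 with a failed estimate were left out, and the 13807 with a mean of at least 0.1 FPKM were tested with limma 3.58.1 (R 4.3.3, eBayes with trend) on log2(FPKM + 0.1), with Benjamini-Hochberg adjustment over all of them and a threshold of 0.05. The method was tested on simulated data in which few genes changed, not on a change as broad as the one here. Single genes and log2 ratios of 6 pairs were compared by a 2-sided exact permutation test over 84 splits of the 9 mice. Each numbered mouse was 1 replicate, and the labels gave no batch. Alternatives covered the pseudocount, the filter, scaling, the limma settings and leaving out each mouse.

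The 10 genes, the gene lists and the pairs were chosen with earlier results of these data known. Named genes were the 10 members, up to 3 genes per pathway list with the largest change among those that passed and whose groups did not overlap, the 3 nearest profiles per tested member, and the first 2 genes of each marker list, of which the text gives a selection. Loci are those of the table, and promoter sequences are from RefSeq on GRCm38.p6.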

Additional observations from a re-analysis of the deposited data

Results flagged for a closer look

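Control mouse 4 stood apart from the other control mice in 2 of the 14 series of control values examined. Its Csf2ra level was 1.06 FPKM and the next control was at 0.440, so that its gap to the nearest mouse was 0.743 of the whole control range, above Dixon's 95% critical value for 6 samples. Its log2 ratio of Csf2rb to Csf2ra was -0.26 and the next control was at 1.22, a gap of 0.638 of the range. Both values rest on the same 36 Csf2ra reads. A gap above that critical value is met by chance in about 1 of 20 groups. Without this mouse Csf2ra stayed higher after anti-CD40, with a log2 fold change of 2.15 (limma adjusted p = 0.000132) in place of 1.91.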

How the results depend on the processing

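No paired analysis was possible because the groups share no mouse numbers. Of 148 values of single genes under the alternatives, 143 kept their direction and side of the threshold, 3 (all Il34) lost significance, 2 (both Csf1r) gained it and 0 changed sign. The count of 6 members higher became 3 (Csf1, Il34 and Csf2rb) with a mean FPKM of at least 1, where fewer genes were tested. The count lower became 1 (Csf1r) after quantile normalization, as did the count separated downward. Leaving out each mouse in turn gave 5 to 6 members higher, 0 to 1 lower, 5 to 6 separated upward and 0 to 1 downward, with the 1 lower or separated downward being Csf1r without control mouse 3. The 3240 genes higher and 2990 lower became 5635 and 1647 with Saa1, Saa2 and Saa3 left out and 1889 and 1253 with at least a 2-fold change, and ranged from 2482 to 3560 and from 2332 to 3270 without single mice. With a pseudocount of 1, ratio differences passed for Csf2rb to Csf2rb2 (0.96), Csf3r to Csf1r (1.19) and Csf2rb to Csf1r (2.01). With 0.01, those of Csf2rb to Csf2rb2 (-0.37) and Csf2rb to Csf2ra (-0.052) changed sign, and the latter was also -0.17 without anti-CD40 mouse 5 and -0.21 without control mouse 4, in a range of -0.21 to 0.25. Beyond the smaller table and samples, the cause was not tested. Depth limits Csf2, Csf3 and Il3ra.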
